A study of Rattus norvegicus with 6 samples.

Results

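The genes described here are those of the heterotrimeric G protein subunits and of the RGS proteins, measured in neonatal rat cardiomyocytes. They were chosen by gene name, as every row of the deposited table named as a Gna, Gnb, Gng or Rgs gene, with no measured value in the rule. The rule itself was set with earlier results of these data known. The rule gave 57 of the 22250 rows, made up of 17 alpha subunit rows, 5 beta subunit rows, 13 gamma subunit rows and 22 RGS rows. Gnas has 2 rows, so the 57 rows carry 56 names. Of these rows, 48 had enough reads to be tested.

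A heterotrimeric G protein is an alpha subunit that holds GDP or GTP, bound to a joined pair of a beta and a gamma subunit. An activated receptor makes the alpha subunit exchange GDP for GTP, after which alpha and beta-gamma act on separate effectors until the alpha subunit hydrolyses its GTP. RGS proteins speed that hydrolysis and so shorten the signal. Alpha subunits fall into classes by effector: Gs stimulates adenylyl cyclase, Gi/o inhibits it, Gq/11 activates phospholipase C beta, and G12/13 acts on the actin cytoskeleton. In heart muscle, beta-adrenergic receptors act through Gs, muscarinic receptors through Gi/o, and angiotensin and endothelin receptors largely through Gq/11. Hydroxy-carboxylic acid receptor 1, the lactate receptor in the series title, couples to Gi.

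The cells were wild-type (WT) cardiomyocytes freed with collagenase from the hearts of 1-day-old Sprague–Dawley rats and cultured in medium with serum. One group was given 3Cl-HBA at 40 µM for 48 h and the other the solvent DMSO, with 3 libraries each, and the comparison asks what the compound did to the transcripts. The 3Cl-HBA libraries held 14607337 to 17202191 reads assigned to genes and the DMSO libraries 13240800 to 14499065, so every treated library was the deeper. The labels give the libraries numbers without naming separate cultures or animals, so p-values measure the spread between these samples, which may be technical. Hcar1 itself had 14, 10 and 5 reads in the 3Cl-HBA libraries and 9, 7 and 5 in the DMSO libraries, too few to be tested.

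Cardiomyocyte markers were abundant, and markers of other heart cells were present in both groups. The 7 cardiomyocyte markers summed to 8437 to 8637 FPKM (reads scaled by gene length and library total, as the authors computed it) in 3Cl-HBA libraries and 8306 to 8859 FPKM in DMSO libraries. The summed levels for fibroblasts, with 7 of 8 markers found, were 3159 to 3204 FPKM in 3Cl-HBA and 3124 to 3282 FPKM in DMSO libraries, and those for smooth muscle and pericytes, with 9 of 9, were 1529 to 1556 and 1492 to 1632 FPKM in the same order of groups. Endothelial markers, with 7 of 8 found, summed to 169.6 to 175.6 FPKM in 3Cl-HBA and 161.5 to 186.3 FPKM in DMSO libraries, and the 7 Schwann cell and neuron markers to 76.2 to 90.5 and 76.3 to 78.4 FPKM. Each level below is thus a sum over several kinds of cell. In such bulk samples fewer cells of a type and less RNA per cell cannot be told apart.

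The Gi/o class dominated the alpha subunits. Its members held 57.2%, 57.4% and 57.9% of the summed alpha FPKM in the 3Cl-HBA libraries and 57.6%, 58.7% and 57.5% in the DMSO libraries. G12/13 held 16.9%, 16.5% and 16.8% in 3Cl-HBA and 17.4%, 16.6% and 16.9% in DMSO libraries. Gs held 16.0%, 15.7% and 15.3% in 3Cl-HBA and 14.8%, 14.2% and 15.7% in DMSO libraries. The shares of these 3 classes overlapped between the treatments. Gq/11 was the smallest class, with 9.86%, 10.5% and 9.95% in 3Cl-HBA and 10.2%, 10.4% and 9.89% in DMSO libraries, which also overlapped.

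The order Gi/o, G12/13, Gs, Gq/11 was found in 6 of 6 libraries, both per length and in plain reads. Gi/o stood far above the other classes: its summed level was 3.44 ± 0.05 times that of G12/13 in 3Cl-HBA libraries and 3.42 ± 0.11 times in DMSO libraries (SD, n = 3 each). G12/13 and Gs were close, at 85.5 to 90.3 FPKM against 73.2 to 85.5 FPKM over all libraries, so that their order held within each library with a small margin. Class sizes depend on the unit. As shares of reads, which favour long transcripts, they were 49.9% for Gi/o, 25.2% for G12/13, 19.6% for Gs and 5.32% for Gq/11. The order of the classes was the same on both scales. Per length, the order of the close G12/13 and Gs classes also rests on the listed lengths, 3494 bases for Gna12 and 3533 for the main Gnas row.

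**Figure D1:**
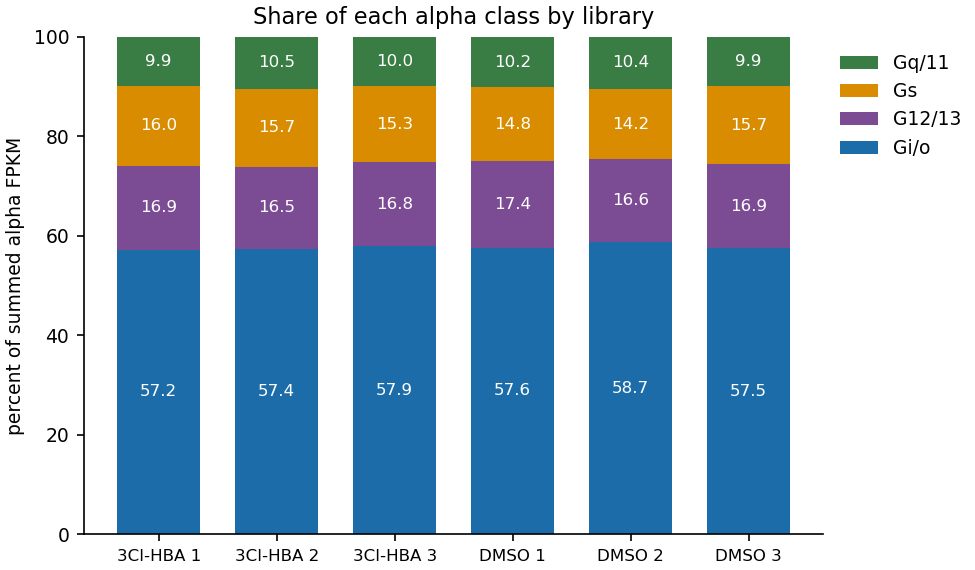
Stacked bars give the share of each alpha subunit class, in percent of the summed alpha FPKM, for the 3 libraries of 3Cl-HBA and the 3 of DMSO. The bars are alike in all 6 libraries, with Gi/o between 57.2% and 58.7% and Gq/11 between 9.86% and 10.5%.

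Within Gi/o, Gnai2 was the most abundant alpha subunit of all. Gnai2 (ENSRNOG00000016592, chromosome 8, 116370744 to 116391307, minus strand; the table names no build for its coordinates) had 208.7, 203 and 200.1 FPKM in 3Cl-HBA libraries and 195.6, 200.8 and 205.5 FPKM in DMSO libraries. The treated and DMSO libraries were interleaved, and Gnai2 alone made up 38.4% to 39.1% of the summed alpha FPKM. Gnai3, another inhibitor of adenylyl cyclase, had 50.9 ± 0.536 FPKM in 3Cl-HBA and 50.9 ± 1.31 FPKM in DMSO libraries (SD, n = 3 each). Gnao1, the Go alpha subunit that is most abundant in neurons, had 31 ± 0.334 and 33.3 ± 1.72 FPKM, and Gnai1 had 11.4 ± 1.21 and 12.4 ± 1.05 FPKM, in the same order of groups. The spreads of these neighbours in the order did not meet: Gnai2 was above Gnai3, Gnai3 above Gnao1 and Gnao1 above Gnai1 in every library.

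The remaining Gi/o genes are known from sensory cells and neurons and were scarce. The cone transducin Gnat2 and the rod transducin Gnat1 had 1.8 ± 0.447 and 1.29 ± 0.168 FPKM in 3Cl-HBA libraries, and 1.58 ± 0.489 and 1.08 ± 0.335 FPKM in DMSO libraries (SD, n = 3 each), and did not differ from each other beyond their spread. Gnat1 lies where Sema3f, with 994 to 1249 reads per library, also lies on the same strand, so its reads may be shared. Gnaz, which resists pertussis toxin, had 3 to 18 reads per library. The taste cell transducin Gnat3 had 2, 0 and 1 reads in 3Cl-HBA and 3, 0 and 0 reads in DMSO libraries, too few to be tested.

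In the other classes a few genes likewise carried nearly all of the signal. The main Gnas row (ENSRNOG00000047374, chromosome 3, 172385672 to 172434613, plus strand), whose locus encodes the Gs alpha subunit, had 81.8, 78.3 and 75.9 FPKM in 3Cl-HBA libraries and 71.9, 69.8 and 79.8 FPKM in DMSO libraries. The DMSO library of replicate 3 lay within the treated range, and replicates 1 and 2 lay below it. A second Gnas row, which overlaps the first on the same strand, had 1.72 ± 0.199 FPKM in 3Cl-HBA and 2.14 ± 0.216 FPKM in DMSO libraries, and Gnal, the olfactory form of Gs, had 1.52 ± 0.39 and 1.25 ± 0.168 FPKM in the same order (SD, n = 3 each). How reads were divided between the 2 Gnas rows is not given in the sources used here.

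Gna12 was the main G12/13 gene, at 70.6, 65.7 and 68.4 FPKM in 3Cl-HBA libraries and 69.6, 66.2 and 71.7 FPKM in DMSO libraries, which overlapped. Gna13 had 19.3 ± 0.94 FPKM in 3Cl-HBA and 18.6 ± 0.902 FPKM in DMSO libraries (SD, n = 3 each). The 2 Gq/11 genes that most tissues share were nearly equal. Gnaq had 25.1, 30.1 and 24.9 FPKM in 3Cl-HBA libraries and 25.1, 28.3 and 24.7 FPKM in DMSO libraries. Gna11 had 24.9, 22 and 24.2 FPKM in 3Cl-HBA libraries and 25, 23.5 and 26.1 FPKM in DMSO libraries, so neither gene stood above the other beyond the spread. Gna14 and Gna15, Gq-class genes of narrower expression, were far lower, at 1.3 ± 0.223 and 1.11 ± 0.245 FPKM in 3Cl-HBA libraries and 1.15 ± 0.252 and 0.655 ± 0.177 FPKM in DMSO libraries. Gnai1, Gnai2 and Gnai3 are close relatives, as are Gnaq and Gna11, and how reads matching several genes were counted is not given in the sources used here.

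**Figure D2:**
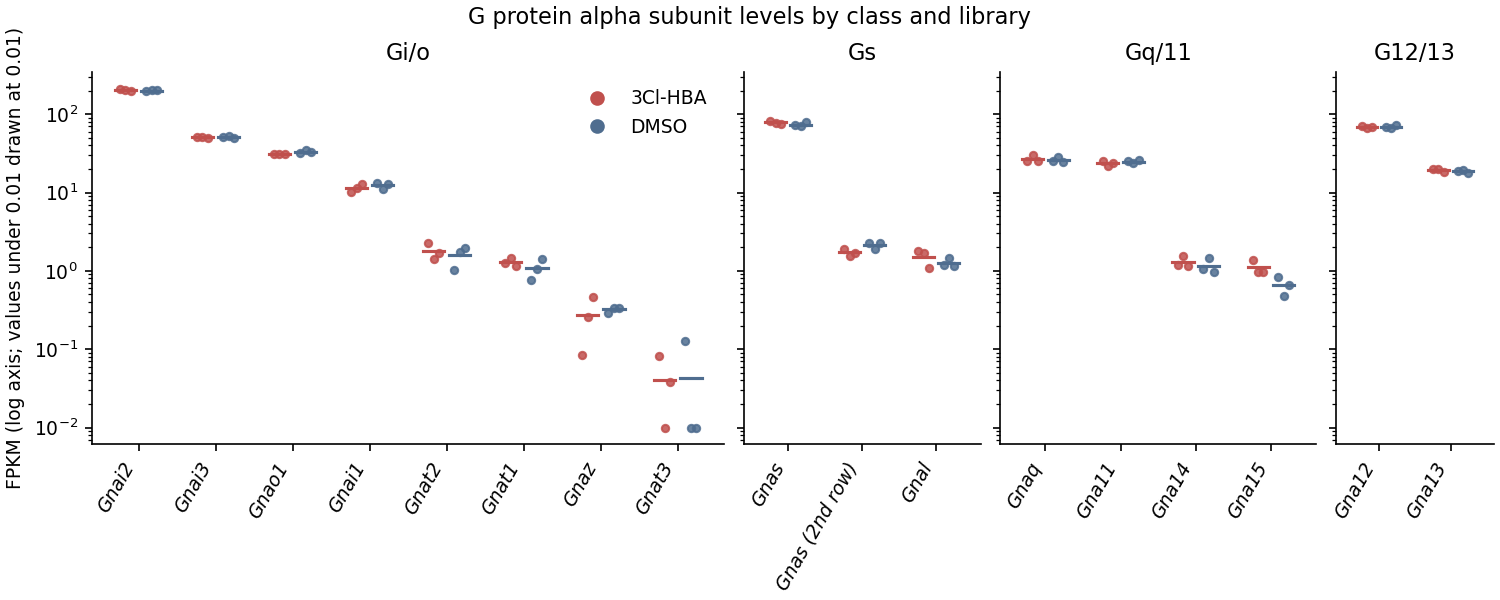
Points give FPKM on a log axis for each alpha subunit row in each library, 3Cl-HBA left of DMSO, grouped by class, and short lines give group means; values under 0.01 are drawn at 0.01. Gnai2 lies near 200 FPKM in both treatments, and Gna15 is the alpha subunit whose 2 sets of points separate most clearly on the log axis.

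Beta subunits came almost wholly from 2 genes. Gnb1 had 186.5, 170.7 and 172.1 FPKM in 3Cl-HBA libraries and 171.9, 176.9 and 169.4 FPKM in DMSO libraries, or 56.1% ± 1.55 and 54.9% ± 0.99 of the summed beta FPKM (SD, n = 3 each). Gnb2 had 119.3, 104.7 and 118.4 FPKM in 3Cl-HBA libraries and 117.2, 114.5 and 118.7 FPKM in DMSO libraries. For both genes the treatments overlapped, and Gnb1 lay above Gnb2 in every library. Gnb5, the beta subunit that pairs with RGS proteins of the R7 family instead of a gamma subunit, had 11.6 ± 1.17 FPKM in 3Cl-HBA and 11.2 ± 1.11 FPKM in DMSO libraries. Gnb4 had 10.2 ± 1.45 and 11.4 ± 1.45 FPKM in the same order, within the spread of Gnb5. Gnb3, known from retinal cones, had 2.41 ± 0.303 and 2.62 ± 0.305 FPKM.

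Among gamma subunits, Gng12 and Gng10 led. Gng12 had 99.3, 102.9 and 95.9 FPKM in 3Cl-HBA libraries and 101, 104.4 and 97.4 FPKM in DMSO libraries. Gng10 had 81.2, 76.7 and 75.4 FPKM in 3Cl-HBA libraries and 74.6, 76.8 and 64.5 FPKM in DMSO libraries. Both pairs of groups overlapped, and Gng12 was above Gng10 in every library. Next came 5 genes whose means over all libraries ran from 8.32 to 16.1 FPKM: the row named Gng5, Gngt2, Gng8, Gng3 and Gng2. Gngt2, the cone transducin gamma subunit, was at 13.4 ± 0.725 FPKM in 3Cl-HBA and 15.6 ± 2.06 FPKM in DMSO libraries. Gng2 lies on a single stretch of 3434 bases in the table, equal to its listed length, so it holds no intron there.

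The row named Gng5 carries another Entrez identifier than the one RefSeq gives to Gng5. It covers 207 bases of chromosome 1, lies opposite Arhgap35, and had 29, 77 and 51 reads in 3Cl-HBA libraries and 32, 54 and 56 in DMSO libraries. A row on chromosome 2 (252359976 to 252368473), named LOC108349548, is described in the table as gamma-5, carries the Entrez identifier that RefSeq (GRCr8) gives to Gng5, and had 1583, 1823 and 1666 reads in 3Cl-HBA libraries and 1498, 1598 and 1378 in DMSO libraries. This equals 76.6 ± 1.01 FPKM in 3Cl-HBA and 77 ± 2.21 FPKM in DMSO libraries, about the level of Gng10. With that row in place of the one named Gng5, Gng12 held 33.8% of the summed gamma FPKM, against 42.5% by the naming rule. The row was chosen after its values were seen.

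The other gamma subunits were scarce. Too low to be tested were Gng4, Gng11, Gng13, Gng14 and Gngt1, which had 0 to 9 reads in any library. Gngt1, the rod transducin gamma subunit, had 0 reads in all 6 libraries, and Gng7 had 6 to 17.

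**Figure D3:**
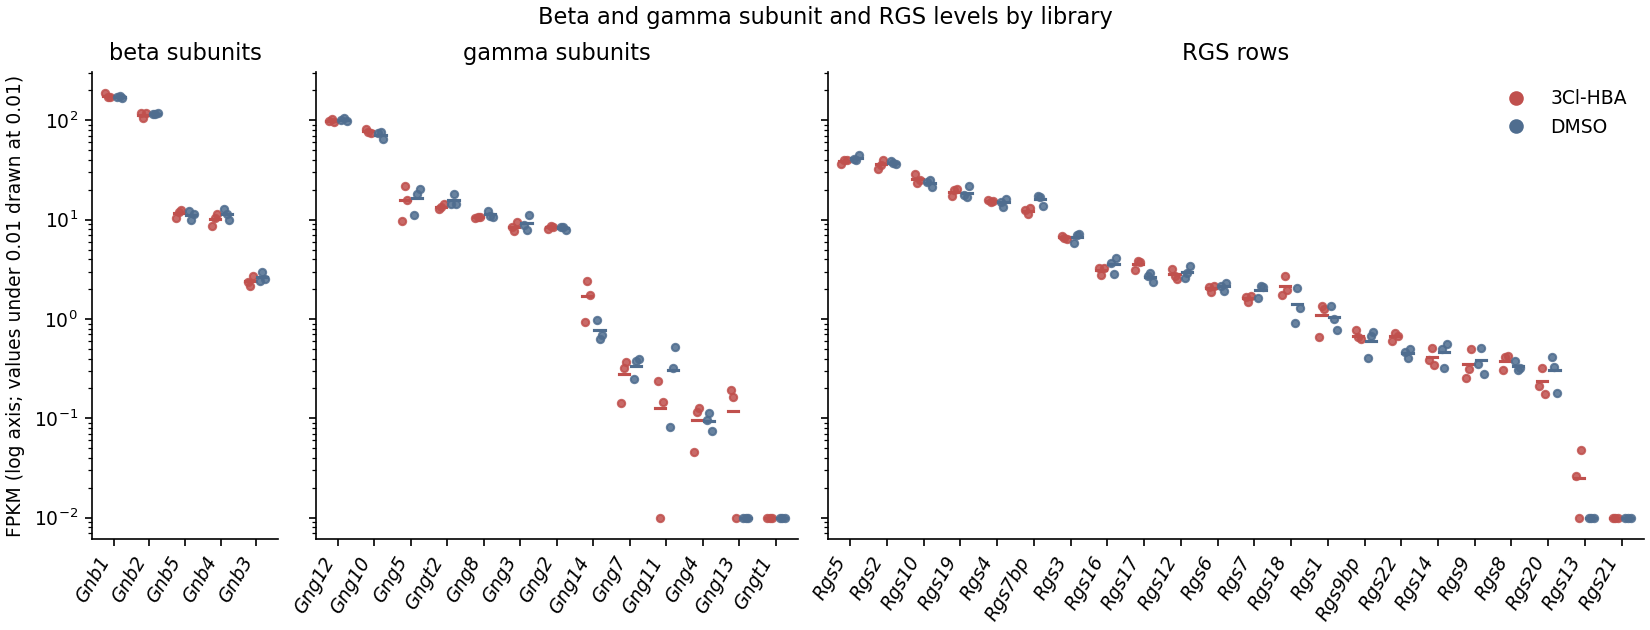
Points give FPKM on a log axis for each beta subunit, gamma subunit and RGS row in each library, 3Cl-HBA left of DMSO, each panel ordered by mean level, with short lines for group means and values under 0.01 drawn at 0.01. Gnb1 and Gnb2 stand apart from the other beta subunits, and Gng12 and Gng10 from the other gamma subunits drawn. The chromosome 2 row described as gamma-5, at about the level of Gng10, is not drawn. Levels of the tested RGS rows decline without such a step.

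RGS genes were spread more evenly, with the R4 family, mostly small RGS proteins, holding the most. R4 genes took 59.8% ± 1.53 of the summed RGS FPKM in 3Cl-HBA and 60.5% ± 1.18 in DMSO libraries, and R12 genes 16.8% ± 2.07 and 15.1% ± 1.11 in the same order (SD, n = 3 each). RZ genes took 13.2% ± 0.93 and 12.2% ± 1.1, and R7 genes, which act with Gnb5, 2.31% ± 0.16 and 2.53% ± 0.16. For each of these 4 families the ranges of the treatments overlapped. The summed RGS FPKM also holds Rgs22 and the binding proteins Rgs7bp and Rgs9bp, which are in none of the 4 families.

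The most abundant RGS transcripts were Rgs5, also a marker of pericytes, and Rgs2, which acts mainly on Gq. Rgs5 had 36.4, 39.4 and 39.9 FPKM in 3Cl-HBA libraries and 40.7, 40.2 and 45 FPKM in DMSO libraries. Rgs2 had 32.7, 35.9 and 40.1 FPKM in 3Cl-HBA libraries and 38.7, 37.2 and 36.7 FPKM in DMSO libraries. The 3 treated values of Rgs5 were the lower ones, while those of Rgs2 overlapped DMSO on both sides. Rgs10, which acts on Gi alpha subunits, had 25.7 ± 2.6 FPKM in 3Cl-HBA and 23.2 ± 1.95 FPKM in DMSO libraries, and Rgs19, of the RZ family, had 19.1 ± 1.68 and 18.7 ± 2.69 FPKM in the same order. Rgs4, which acts on Gi and Gq, had 15.3 ± 0.386 and 14.9 ± 1.48 FPKM. Rgs7bp, which holds R7 RGS proteins at the membrane, had 12.3 ± 0.852 and 16 ± 2.07 FPKM. Levels of Rgs6, an R7 protein that limits muscarinic slowing of the mouse heart, were 2.03 ± 0.145 FPKM in 3Cl-HBA and 2.13 ± 0.205 FPKM in DMSO libraries. Of the remaining tested RGS rows, Rgs3 was the highest, at 6.64 ± 0.249 FPKM in 3Cl-HBA and 6.62 ± 0.694 FPKM in DMSO libraries, and Rgs20 the lowest, at 0.235 ± 0.0751 and 0.31 ± 0.12 FPKM; between them lay Rgs16, Rgs17, Rgs12, Rgs7, Rgs18, Rgs1, Rgs22, Rgs14, Rgs9 and Rgs8. Too low to be tested were Rgs9bp, which anchors Rgs9 in photoreceptors, with 4 to 8 reads, Rgs13 with 0 to 2, and Rgs21 with 0 in all libraries.

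After 3Cl-HBA, 0 of the 48 tested members differed from DMSO past an adjusted p of 0.05 in edgeR (quasi-likelihood fit, Benjamini-Hochberg over the whole table). The same held for all 13903 genes tested (0%), and the lowest adjusted p of a member was 0.914. Before adjustment, 4 members had a p under 0.05, or 8.33%, beside 5.11% of all genes tested; 3 were higher, beside 2.52%, and 1 lower, beside 2.59%. The treated libraries lay all above or all below the DMSO libraries in 7 members, or 14.6%, beside 10.5% of all genes. With 48 members these shares amount to a few genes. DESeq2 called 0 members with 2 at an unadjusted p under 0.05, and its share over all genes is not given here. Fold changes were balanced, with 23 log2 fold changes (3Cl-HBA minus DMSO) above 0 and 25 below, and a median of -0.019 beside -0.00051 for all genes.

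By role, the median log2 fold change was 0.033 over 16 tested alpha rows, -0.032 over 5 beta rows, -0.079 over 8 gamma rows and -0.047 over 19 RGS rows. The median over all members turned to 0.0057 without 3Cl-HBA replicate 1 and 0.0056 without DMSO replicate 3. Among the dominant genes, the log2 fold change was 0.025 for Gnai2 (SE 0.045, 95% interval -0.065 to 0.116, edgeR adjusted p 0.99), -0.018 for Gna12 (SE 0.049) and 0.041 for Gnaq (SE 0.085). For Gnas it was 0.093 (SE 0.051, adjusted p 0.975). The values for Gnb1, Gnb2, Gng12 and Gng10 were 0.032 (SE 0.048), -0.032 (SE 0.052), -0.02 (SE 0.063) and 0.112 (SE 0.064). Among the other alpha subunits, it was 0.0026 for Gnai3, -0.112 for Gnai1, 0.053 for Gna13, 0.176 for Gna14, 0.277 for Gnal and 0.187 for Gnat2, with adjusted p of 0.984 or more. For Gnat1, Gnaz and the second Gnas row it was 0.271, -0.237 and -0.32, and for Gnb3, Gnb4 and Gnb5 -0.124, -0.148 and 0.066. The signs of Gna12, Gnaq, Gnb1, Gnb2, Gng12 and Rgs2 turned when single libraries were left out.

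The data bounded a change closely for abundant members and loosely for scarce ones. The 95% interval lay inside a 2-fold change for 42 of 48 members, or 87.5%, beside 92.3% of all genes, and inside 1.5-fold for 29, or 60.4%, beside 80.9%. All 5 beta subunits were inside 1.5-fold, as were 9 of 16 alpha, 6 of 8 gamma and 9 of 19 RGS rows. The median biological coefficient of variation was 0.0821 over the members and 0.0647 over all genes, at median levels of 9.83 and 10.3 FPKM.

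**Figure D4:**
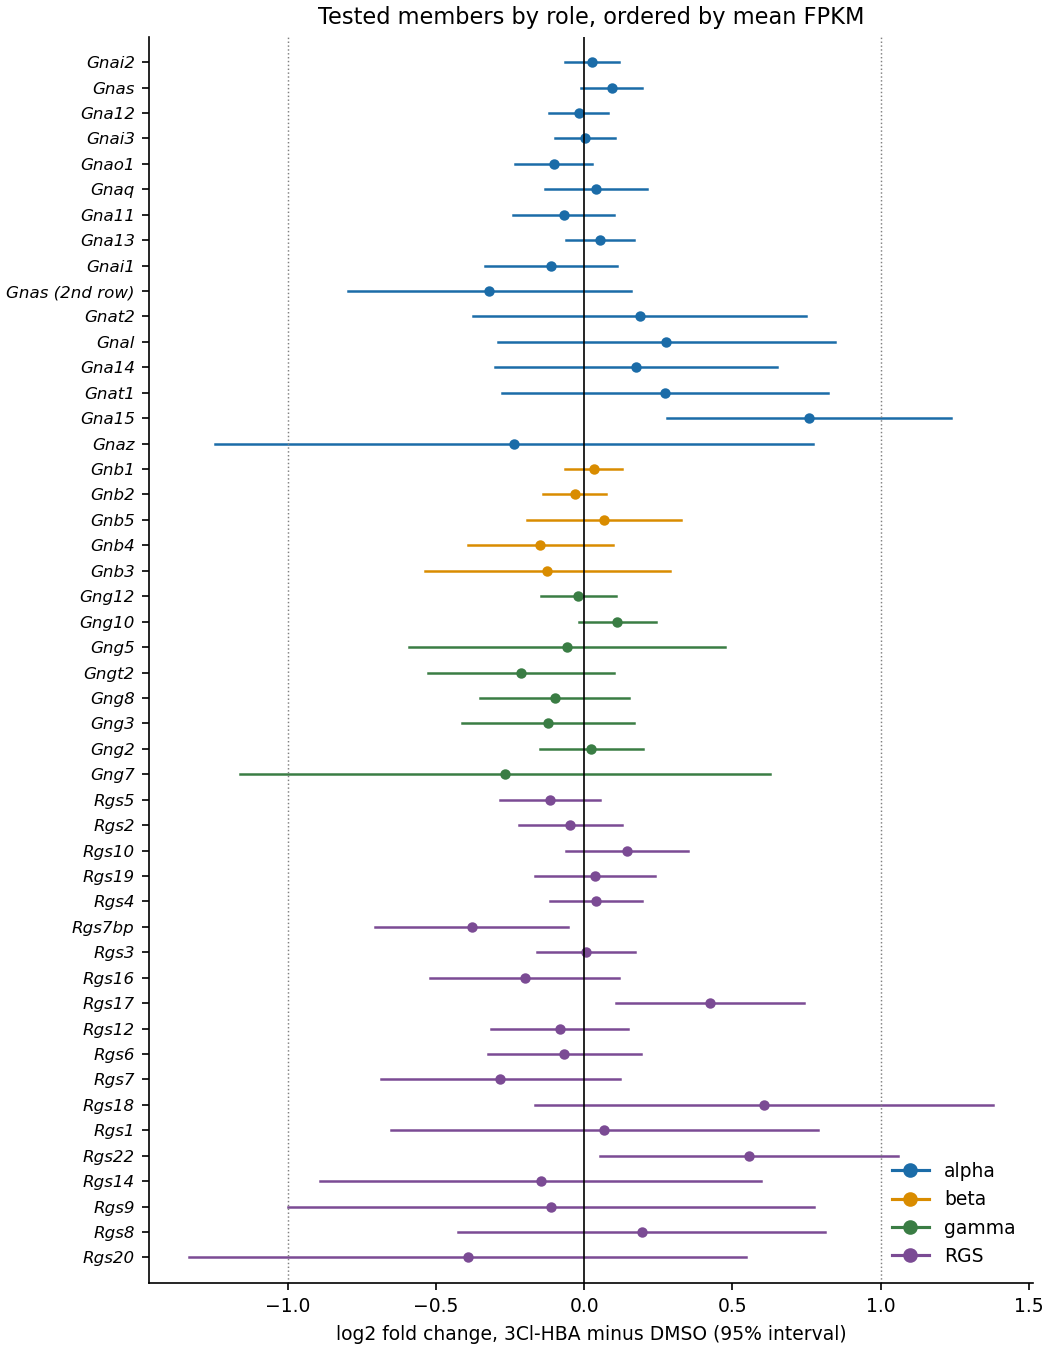
Points give the log2 fold change of the 48 tested members, 3Cl-HBA minus DMSO, with 95% intervals from edgeR as lines, colored by role and ordered by mean FPKM within each role; dotted lines mark a 2-fold change. Intervals are short for abundant genes such as Gnai2 and Gnb1 and wide for scarce ones, and those of Gna15, Rgs17, Rgs22 and Rgs7bp do not include 0 before adjustment for the number of genes.

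The 7 members whose treatments did not overlap included 3 that were higher and 4 that were lower after 3Cl-HBA, beside 5.24% and 5.22% of all genes. Gna15 (ENSRNOG00000005378, chromosome 7, 11054333 to 11077251, plus strand), a Gq-class alpha subunit known from blood cells that couples to many receptors, had the smallest p. It had 83, 67 and 63 reads in 3Cl-HBA libraries and 47, 28 and 36 reads in DMSO libraries. On the scale of counts over TMM-scaled library totals (CPM), this was 5.66, 3.92 and 4.01 CPM in 3Cl-HBA and 3.36, 1.93 and 2.73 CPM in DMSO libraries. The 3Cl-HBA library of replicate 1 was the highest, and the gap between the lowest treated and the highest DMSO library was smaller than the SD of either group. The fitted log2 fold change of 0.76 had an SE of 0.24 and a 95% interval of 0.28 to 1.24, with a p of 0.0026 before adjustment and 0.914 after it in edgeR. It ran from 0.56 to 0.96 over the 13 alternatives, with adjusted p no lower than 0.496. Its neighbour Gna11, 6895 bases upstream on the same strand, had a log2 fold change of -0.069 (SE 0.084).

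Markers of blood cells were looked at beside Gna15, since it is known from those cells. The 8 macrophage and leukocyte markers summed to 246 to 259 FPKM in 3Cl-HBA and 232 to 255 FPKM in DMSO libraries, and 6 of 7 tested were above 0 in log2 fold change, with a median of 0.104 and 0 called. The 7 platelet and erythroid markers summed to 165 to 183 FPKM in 3Cl-HBA and 161 to 193 FPKM in DMSO libraries, with Ppbp at 0 reads in all libraries and a median log2 fold change of 0.007 over 4 tested. Both sums overlapped between treatments. Most of the second sum came from Pf4. In the same list Gp9 had 1 to 5 reads and Itga2b 29 to 45 reads per library, so the sum is no measure of platelets as such. Of the 4 tested, 3 were above 0 in log2 fold change, and Itga2b was at 0.0064 (SE 0.29). Hba-a1 and Pf4, named after their values were seen, lay on opposite sides of 0. Hba-a1, the alpha globin of red cells, had 40.8, 35.7 and 27.7 FPKM in 3Cl-HBA and 22.2, 25.1 and 26.9 FPKM in DMSO libraries, higher in every treated library (log2 fold change 0.49, SE 0.12, edgeR p 0.00025 unadjusted and 0.845 adjusted). The platelet factor Pf4 had 127.7, 122.3 and 125.9 FPKM in 3Cl-HBA and 125.2, 141.8 and 153.7 FPKM in DMSO libraries, which overlapped (log2 fold change -0.16, SE 0.078, edgeR p 0.046 unadjusted and 0.959 adjusted). The adjusted p of Hba-a1 was the lowest over all genes tested. The part of the blood cell markers in the level of Gna15 was not tested. Rgs18, known from platelets, had 18, 33 and 22 reads in 3Cl-HBA and 9, 21 and 12 reads in DMSO libraries. Rgs1, known from lymphocytes, had 13, 32 and 27 reads in 3Cl-HBA and 26, 20 and 14 reads in DMSO libraries. Both genes overlapped between treatments. The log2 fold change was 0.61 for Rgs18 (SE 0.38, interval -0.17 to 1.38) and 0.068 for Rgs1 (SE 0.36).

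The promoters of Gna15 and Gna11 are shown because the genes are neighbours of the same class whose levels differ widely, together with those of Rgs17 and Rgs7bp, the RGS rows with the next smallest p. Each line holds the 250 bases before the annotated start, from RefSeq on GRCr8, 5′ to 3′ on the gene's strand, with GC boxes (GGGCGG or its reverse complement CCGCCC) in capitals.
Gna15: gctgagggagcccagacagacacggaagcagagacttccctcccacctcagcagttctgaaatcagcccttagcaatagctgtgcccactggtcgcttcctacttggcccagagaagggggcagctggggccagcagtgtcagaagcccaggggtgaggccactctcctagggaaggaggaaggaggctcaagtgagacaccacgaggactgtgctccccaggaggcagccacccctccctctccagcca
Gna11: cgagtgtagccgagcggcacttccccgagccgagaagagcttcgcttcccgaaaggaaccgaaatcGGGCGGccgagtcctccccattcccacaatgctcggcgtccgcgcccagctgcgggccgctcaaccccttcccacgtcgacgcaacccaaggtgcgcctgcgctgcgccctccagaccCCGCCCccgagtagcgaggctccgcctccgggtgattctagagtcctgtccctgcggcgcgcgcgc
Rgs17: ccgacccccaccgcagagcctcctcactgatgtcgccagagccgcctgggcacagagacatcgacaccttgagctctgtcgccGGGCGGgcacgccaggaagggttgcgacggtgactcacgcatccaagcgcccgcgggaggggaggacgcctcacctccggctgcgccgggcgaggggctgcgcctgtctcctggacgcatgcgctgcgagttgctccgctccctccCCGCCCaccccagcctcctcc
Rgs7bp: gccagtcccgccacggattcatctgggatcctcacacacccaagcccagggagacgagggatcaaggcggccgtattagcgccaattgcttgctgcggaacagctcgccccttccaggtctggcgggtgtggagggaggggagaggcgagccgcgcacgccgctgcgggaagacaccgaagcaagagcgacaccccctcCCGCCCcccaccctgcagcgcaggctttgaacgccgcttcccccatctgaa
They lie at chr7:8835374-8835623 (plus), chr7:8814035-8814284 (plus), chr1:44729946-44730195 (minus) and chr2:37965254-37965503 (minus) of that build.

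The Gna15 window held 0 GC boxes and 3 CpG dinucleotides, while that of Gna11 held 2 GC boxes and 33 CpG. The Rgs17 window held 2 GC boxes and 26 CpG, and the Rgs7bp window 1 and 21. A GC box was found in 10197 of 33469 RefSeq promoter windows of the same length, or 30.5%, on either strand. RefSeq windows were matched for 45 of the 56 member names, leaving out the window of Gng5, which belongs to the chromosome 2 row. Gnai2 and Gnai3 were among the names without a matched window. Of the 47 windows, 24, or 51.1%, held a GC box. The 30.5% is over all RefSeq windows, also those of genes too low to test here, and the share over tested genes was not counted. Among windows of tested members 22 of 38 held one, with a median of 15.5 CpG, and among those of members too low to test 2 of 9, with a median of 2 CpG, beside a median of 5 CpG over all RefSeq windows. The cAMP response element TGACGTCA was found in 1 member window, that of Gnao1, and in 1.59% of all windows. A match of letters does not show that a factor binds there.

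Of the RGS rows, 2 were higher in all treated libraries. Rgs17, which acts on Gz and Gi alpha subunits, had 7.77, 9.53 and 9.43 CPM in 3Cl-HBA libraries and 6.8, 7.23 and 5.91 CPM in DMSO libraries, with the lowest treated library just above the highest DMSO one. With an SE of 0.16, the log2 fold change of Rgs17 came to 0.42 (interval 0.11 to 0.74), and edgeR gave a p of 0.0099 unadjusted and 0.959 adjusted. Rgs22, an RGS gene known from testis, had 3.07, 3.74 and 3.44 CPM in 3Cl-HBA libraries and 2.36, 2.07 and 2.58 CPM in DMSO libraries (log2 fold change 0.56, SE 0.25, unadjusted p 0.031, adjusted p 0.959).

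Lower in all treated libraries were Rgs7bp, Gngt2, Rgs5 and Gnao1. Rgs7bp had 6.41, 5.91 and 6.75 CPM in 3Cl-HBA libraries and 8.95, 8.74 and 7.05 CPM in DMSO libraries, where replicate 3 of DMSO stood near the treated values (log2 fold change -0.38 with SE 0.16, interval -0.7 to -0.055; edgeR p 0.023 unadjusted, 0.959 adjusted). The other 3 genes had an unadjusted p over 0.05. For Gnao1, which had 64.2, 63.7 and 64.7 CPM in 3Cl-HBA and 65.4, 72.5 and 68.8 CPM in DMSO libraries, the log2 fold change was -0.103 (SE 0.064). Rgs5 had 29.7, 32.5 and 32.7 CPM in 3Cl-HBA and 33.2, 32.8 and 36.9 CPM in DMSO libraries (log2 fold change -0.116, SE 0.083). The pericyte and smooth muscle marker sums given above overlapped between treatments. Pdgfrb, Abcc9 and Kcnj8 are a small part of those sums, which therefore say little about pericytes. Their log2 fold changes were -0.022 (SE 0.047), -0.078 (SE 0.051) and 0.051 (SE 0.14). The part of pericytes in the level of Rgs5 was not tested. Gngt2 had 6.89, 7.25 and 7.71 CPM in 3Cl-HBA and 7.8, 9.71 and 7.81 CPM in DMSO libraries (log2 fold change -0.214, SE 0.16). For all 4 genes the nearest libraries of the 2 treatments were close, within 1 CPM of each other.

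**Figure D5:**
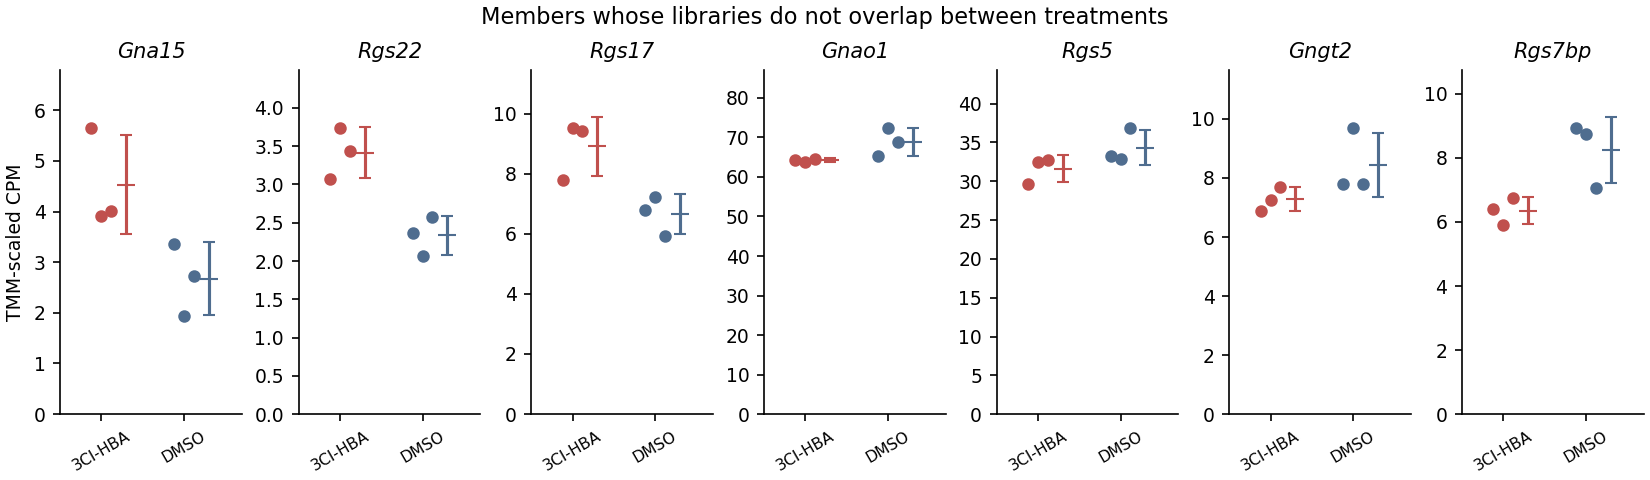
Points give TMM-scaled CPM in each library for the 7 members whose treatments do not overlap, 3Cl-HBA left of DMSO, with the mean and SD of each group beside them and every axis starting at 0. Gna15, Rgs22 and Rgs17 are higher after 3Cl-HBA and the other 4 lower.

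Genes that work with G proteins gave the same count of calls. These were 40 rows for chaperones, receptor kinases, arrestins, effectors and other proteins with RGS domains, 37 of them tested, of which 0 passed over all genes. At an unadjusted edgeR p under 0.05 there were 3 of 37, beside 5.11% of all genes in either direction. All 3 were lower, a direction seen only in the results, beside 2.59% of all genes. The most abundant were Adcy6, a main adenylyl cyclase of heart muscle, at 49.6 ± 2.37 FPKM in 3Cl-HBA and 52.2 ± 1.76 FPKM in DMSO libraries, Arhgef1, an effector of G12/13, at 32.3 ± 1.13 and 32.2 ± 0.272 FPKM, and the phospholipase Plcb4 at 30.9 ± 1.48 and 32.5 ± 0.664 FPKM, in the same order (SD, n = 3 each). The 3 with the small p, named after their values were seen, were Arhgef12, another effector of G12/13 (log2 fold change -0.144, SE 0.054), and the adenylyl cyclases Adcy4 (-0.147, SE 0.07) and Adcy7 (-0.139, SE 0.068), each with an edgeR adjusted p of 0.959. In this list 12 genes were above 0 and 25 below, with a median of -0.057, beside 50.2% below 0 and a median of -0.00051 over all genes tested. The treatments did not overlap in 5 of the 37, beside 10.5% of all genes. Of these, 1 was higher and 4 lower, beside 5.24% and 5.22% of all genes.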

How the data were processed

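The deposited table holds, per the file headers, whole-number read counts per gene and library, not normalised, and FPKM computed by the authors, with gene lengths and coordinates. The FPKM equal count over length and library total within a relative gap of 8.2e-08. The sources used here do not name the aligner, counter, strand setting or build; DESeq2 is the authors' tool per the labels' protocols. Columns were assigned by the treatment protocol, which names them, and the replicate number in the titles.

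Levels between genes use the authors' FPKM. Counts were tested over the whole table with edgeR 4.0.16 in R 4.3.3 (TMM, filterByExpr with a minimum count of 10, robust quasi-likelihood fit, no block), Benjamini-Hochberg adjusted, threshold 0.05. The SE is the absolute log2 fold change over the root of F. An exact permutation test of 3 against 3 cannot go below 0.1 and was not used. Alternatives were DESeq2 1.42.0, limma-voom (limma 3.58.1), other scalings, no filter, a block, a length correction and each library left out. The procedure was run on simulated counts with 2-fold changes, which does not show how well it finds smaller ones. Members were taken by name alone, but the naming rule and the marker and partner lists were set with earlier results of these data known. The text names every alpha and beta subunit, the abundant gamma and RGS genes, and members with an unadjusted p under 0.05 or groups that do not overlap; other members are given by range or count or were named for their role.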

Additional observations from a re-analysis of the deposited data

How the results depend on the processing

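The count of members called stayed at 0 under DESeq2, limma-voom, 2 other scalings, no filter on low counts, a correction for gene length, the replicate block and each library left out, and so did the count of partners. Members with an unadjusted p under 0.05 numbered 4, with 2 under DESeq2 and 2 to 5 when single libraries were left out. Members whose groups do not overlap numbered 7, with 8 to 17 when a library was left out, where fewer libraries make overlap rarer. The shares over all genes under DESeq2 and with a library left out are not given here. These counts therefore cannot be read against the shares of the main fit. As a share of reads in place of FPKM, Gs moved to 19.6%, Gi/o to 49.9%, Gq/11 to 5.32% and G12/13 to 25.2%. Signs turned, when single libraries were left out, for Rgs2 (-0.128 to 0.023), Gna12 (-0.051 to 0.0081), Gnaq (-0.060 to 0.105), Gnb1 (-0.0054 to 0.052), Gnb2 (-0.062 to 0.023) and Gng12 (-0.050 to 0.0027); the cause was not tested. Of 221 refitted fold changes 213 kept their direction and side of the threshold. Same-numbered libraries did not deviate together over the tested genes (correlations of -0.069, -0.044 and -0.045). With 3 libraries per group this cannot tell whether they came from the same culture, which the labels do not say. With the replicate block 0 members were called, 4 had an unadjusted edgeR p under 0.05 and the median log2 fold change was -0.019. Tested members with few reads, such as Gnaz, carry wide intervals at this depth.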
